A study of Mus musculus with 6 samples.

Results

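The Myc, Max and Mxd network is a set of transcription factor genes, here Myc, Mycn, Mycl, Max, Mxi1, Mxd1, Mxd3, Mxd4, Mnt and Mga. Its members in these data were the accessible regions whose midpoint lay in the body of 1 of the 10 genes or within 50 kb of it, in the mouse genome build mm10. By this rule 34 of the 43523 distinct regions belonged to the network, and each gene had from 2 regions (Max, Mxd1 and Mga) to 6 regions (Mxi1). Accessibility was measured by ATAC-seq, in which the transposase Tn5 cuts and tags open DNA, in nephron progenitors of CD1 mice with no genetic change or treatment named in the labels. These cells renew themselves in the outer kidney until shortly after birth and give rise to the nephrons. They were taken at embryonic day E14.5 or on the day of birth (P0). Each stage has 3 libraries, and each library came from 50000 cells pooled over the kidneys of a litter and enriched with magnetic beads against Itga8, an integrin on their surface. Bead selection leaves some other cells in each pool, and the labels give no purity.

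Proteins of the network share a basic helix-loop-helix leucine zipper, through which they pair with Max. Pairs of Myc, Mycn or Mycl with Max bind the E-box, a palindrome with the letters CACGTG, and raise the transcription of genes for ribosomes, metabolism and the cell cycle. Mxi1, Mxd1, Mxd3, Mxd4, Mnt and Mga compete for Max and for the same sites and recruit repressors, so that the balance of both arms is tied to growth and exit from the cycle. In the embryonic kidney, Myc and Mycn are known for roles in the growth of the progenitor pool, and loss of Mycn function in mice gives small kidneys.

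RefSeq promoter windows were matched by symbol for 9 of the 10 genes (11 windows of 250 bases before and 50 after a start, assembly GRCm38.p6), and 4 of them are shown because they hold the letters of an E-box or of an E2F motif. The windows of Max, Mnt and Mxd4 held the E-box letters CACGTG, which 7.15% of all 32851 RefSeq promoter windows contain. In Max the E-box began 3 bases before the start, in Mnt 123 and in Mxd4 219 bases before it. The Mycn window held letters of the E2F type, the motif of factors that drive entry into S phase. Searched on both strands were TTTCCCGC, TTTCGCGC, TTTGCCGC and TTTGGCGC with their complements, present in 2.26% of all windows. Mycn had TTTGGCGC at 183 and at 168 bases before the start, and GCGCGAAA, which overlaps the earlier of these, at 179. The lines below run 5′ to 3′ on the strand of the gene, from 250 bases before the start to 10 bases after it, with the E-box or E2F letters in capitals. A match describes the letters only.
Max (chr12:76962239-76962498, minus strand): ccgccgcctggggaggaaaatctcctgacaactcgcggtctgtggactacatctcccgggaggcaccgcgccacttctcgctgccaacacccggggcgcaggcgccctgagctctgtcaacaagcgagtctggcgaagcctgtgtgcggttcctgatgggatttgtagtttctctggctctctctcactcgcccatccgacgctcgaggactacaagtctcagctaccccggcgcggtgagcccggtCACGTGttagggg
Mnt (chr11:74830674-74830933, plus strand): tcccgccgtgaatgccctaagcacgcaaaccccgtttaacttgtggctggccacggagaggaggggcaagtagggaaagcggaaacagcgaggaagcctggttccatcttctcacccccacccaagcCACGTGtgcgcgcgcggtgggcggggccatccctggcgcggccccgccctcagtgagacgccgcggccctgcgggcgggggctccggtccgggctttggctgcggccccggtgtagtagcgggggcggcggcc
Mxd4 (chr5:34187701-34187960, minus strand): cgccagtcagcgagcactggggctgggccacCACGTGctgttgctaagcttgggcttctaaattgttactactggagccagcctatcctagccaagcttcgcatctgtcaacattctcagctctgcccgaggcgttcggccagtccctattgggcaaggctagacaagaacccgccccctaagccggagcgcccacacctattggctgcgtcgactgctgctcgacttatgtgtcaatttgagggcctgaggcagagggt
Mycn (chr12:12941827-12942086, minus strand): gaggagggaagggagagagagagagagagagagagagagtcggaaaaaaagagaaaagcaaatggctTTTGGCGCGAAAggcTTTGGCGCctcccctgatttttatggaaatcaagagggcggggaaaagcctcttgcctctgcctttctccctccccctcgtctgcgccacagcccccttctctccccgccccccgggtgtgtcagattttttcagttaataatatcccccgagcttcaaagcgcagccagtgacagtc

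These 4 stretches lay wholly within accessible regions. By the motif annotation of the deposited table, 6 of the 12 regions at the genes' own promoters listed an E2F match, against 35.5% of the 10737 regions within 1 kb of a RefSeq start. They were at Myc, Mycn, the earlier start of Mxi1, Mxd3 and Mnt. Mnt counts with both of its regions, which overlap almost wholly and list the same matches. A match of the Sall family, zinc finger factors that include the progenitor regulator Sall1, was listed at 7 of the 12, against 27.7%. None of the 56 motif names in that annotation belonged to the Myc and Max family, so E-box matches outside the RefSeq windows were not analysed here.

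The 34 regions fell into 4 kinds. There were 12 at the genes' own promoters (within 1 kb of a RefSeq start, 1 for each gene except Mxi1 and Mnt with 2 each), and those of Mnt overlap almost wholly, so that their counts are not independent. A further 2, in Myc and Mnt, were listed as the gene's promoter but lay over 1 kb from its start. Promoters of other genes within the window made up 9, and 11 were distal, at Mycn (4), Mxi1 (3), Mycl (2), Max (1) and Mxd4 (1). Total counts in regions ran from 6492996 to 12292629 per library, and a network region held from 17 to 1119 counts in a library. Open promoters were found for 8 of 10 progenitor marker genes (Six2, Cited1, Eya1, Gdnf, Itga8, Osr1, Sall1 and Wt1), for 3 of 7 stromal (Foxd1, Tcf21 and Dcn), 3 of 6 ureteric, 1 of 6 endothelial and 0 of 5 immune genes. With regions within 50 kb counted as well, 8 of 10 progenitor, 6 of 7 stromal, 6 of 6 ureteric, 6 of 6 endothelial and 5 of 5 immune genes had a region, so that the contrast between the lists held for promoters alone. Summed over the list, progenitor promoters held from 231.9 to 238.4 CPM (counts relative to the library total, scaled by the trimmed mean of M values) at E14.5 and from 200.4 to 260.1 at P0. Among the 30 regions assigned to progenitor markers, 3 were called lower at P0 (2.94% of all regions were). Among 25 of differentiating nephron markers 1 was called higher (1.79% of all regions), and among 23 of endothelial markers 1 was called higher and 1 lower. The part of these cells in the results was not tested. Promoters of differentiating markers were open for 4 of 8 genes, at 135.9 to 147.2 and 129.1 to 168.3 CPM. The summed ranges of the other lists also overlapped between the stages, with stromal promoters at 51.7 to 78.0 and 62.4 to 81.1 CPM and ureteric promoters at 81.7 to 93.1 and 75.8 to 82.4 CPM.

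Between the stages, 2 of the 34 network regions passed edgeR's quasi-likelihood test at a Benjamini-Hochberg adjusted p under 0.05, both higher at P0, a distal region at Mycn and a distal region near Max. Over all regions tested 4.73% passed (1.79% higher, 2.94% lower), and the share of the network regions was near the background. None of the 12 own promoters passed in edgeR, and 0.708% of all 10737 regions within 1 kb of a RefSeq start did. None of the 12 had an unadjusted p under 0.05 either, against 888 of the 10737. At an unadjusted p under 0.05, 5 of the 34 regions differed (18.7% of all regions), 4 of them distal and higher at P0. Every P0 library lay above every E14.5 library in 7 network regions (11.8% of all regions) and below in 2 (12.4%). The median log2 fold change was -0.07 over the network, from -0.49 to 0.90, and 0.01 over all regions. In counts from a pool of cells, a change in the share of cells that have a region open cannot be told apart from a change in how open it is in each cell.

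**Figure D1:**
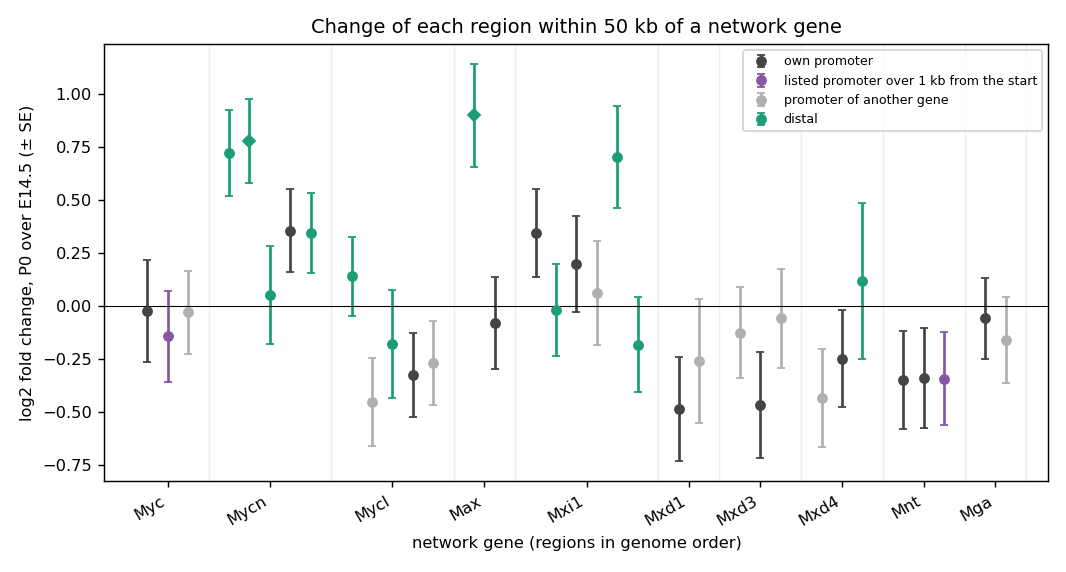
Log2 fold change (P0 over E14.5, y axis) with its standard error for the 34 regions, grouped by network gene and coloured by kind, with diamonds for an adjusted p under 0.05. The highest points are distal regions at Max, Mycn and Mxi1, while the own promoters (dark) lie between -0.49 and 0.35.

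The promoters of the 10 genes were ordered by accessibility per length. Averaged over the 6 libraries, the Max promoter came to 50.2 ± 8.43 CPM per kb of region (SD, n = 6) and Mxd1 to 47.3 ± 15.3, and Mxd1 lay above Max in 1 of the 6 libraries, E14.5 replicate 1. With that library included, the E14.5 mean of Mxd1 (55.3) lay above that of Max (51.7), and at P0 it lay below (39.35 and 48.8). Max and Mxd1 were followed by Mxd4 (37.7 ± 8.24), Myc (31.5 ± 7.32) and Mnt (24.9 ± 5.78). Mnt, the last of these, stood at percentile 92.2 of all regions on this scale. A lower group held the later start of Mxi1 (16.9 ± 3.70), Mycn (15.5 ± 2.94), Mycl (14.58 ± 2.66) and the earlier start of Mxi1 (12.8 ± 2.35). Mga (11.3 ± 1.18) and Mxd3 (9.60 ± 2.74) had the lowest means, and the Mxd3 promoter sat at percentile 57.2 of all regions. Of the 11 steps between neighbours in this order, 10 were smaller than the larger of the neighbours' SDs, the exception being the step from Mnt to Mxi1. The 10 include the step between the overlapping Mnt regions. The SDs also take in differences between libraries and stages that the promoters partly share, so they do not measure how certain the order is. Within the lower group the order also differed between the stages, with Mycl at 16.2 CPM per kb at E14.5, above the later Mxi1 start (15.8) and Mycn (13.7), and at 12.9 at P0, below both Mxi1 starts and Mycn. The earlier Mxi1 start (11.3) lay just below Mga (11.5) at E14.5.

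**Figure D2:**
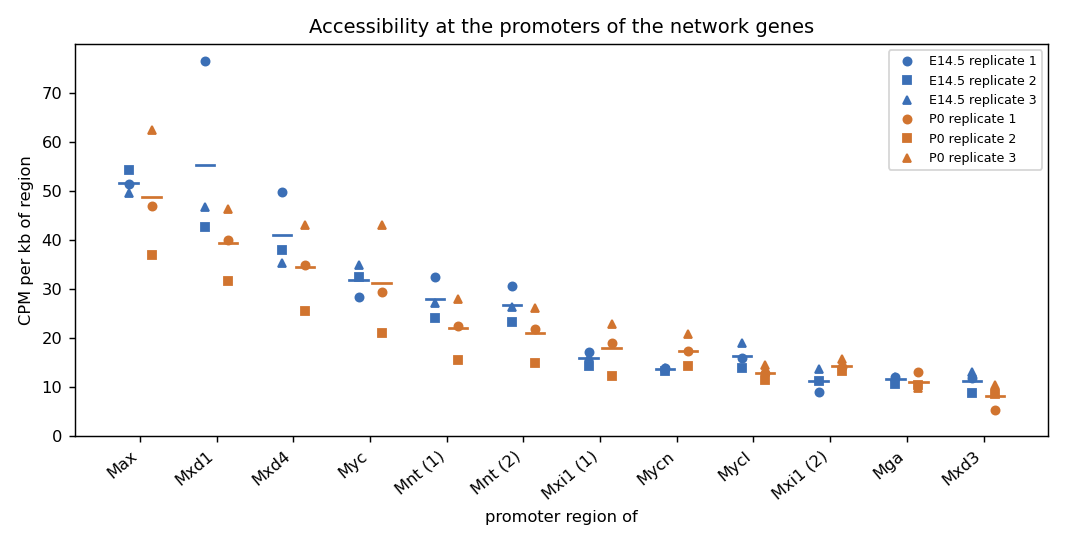
CPM per kb of region (y axis) at the 12 own promoter regions, in order of their mean, with a point for each library, marker shape for the replicate number and lines for the mean of a stage. Numbers in brackets separate the overlapping regions of Mnt and the starts of Mxi1 (1 for the later, 2 for the earlier). Max, Mxd1, Mxd4, Myc and Mnt sit above the others, and P0 replicate 2 is the lowest library at 8 of the 12.

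Among the activating members, the Myc promoter, from 61984259 to 61985890 on chromosome 15 and spanning the start of the gene, had 46.1, 53.0 and 56.8 CPM in the E14.5 libraries and 48.0, 34.4 and 70.2 CPM at P0 (replicates 1, 2 and 3). The P0 libraries bracketed those of E14.5, and the log2 fold change was -0.03 (SE 0.24, adjusted p = 0.972 in edgeR), from -0.35 without P0 replicate 3 to 0.19 without P0 replicate 2. A region inside the gene, from 61986706 to 61988124, held 28.7 ± 3.58 CPM at E14.5 and 25.8 ± 6.64 CPM in P0 libraries (SD, n = 3 each, log2 fold change -0.14, from -0.37 to 0.02 without P0 replicate 3 or 2). The third region, nearest to the start of Pvt1, a noncoding gene downstream of Myc, stood at 20.8 ± 0.385 and 20.4 ± 3.67 CPM. All 3 regions of Myc thus overlapped between the stages.

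Mycn, the family member best known from embryonic tissues, gave the only locus where all regions had a positive log2 fold change, 5 of 5, or 4 of 5 without E14.5 replicate 3 or without P0 replicate 1. Its promoter region (chromosome 12, 12940730 to 12942975) had 31.0, 29.9 and 31.2 CPM at E14.5 and 38.8, 31.8 and 46.7 CPM at P0. The P0 libraries all lay above those of E14.5, by little in replicate 2, and the log2 fold change of 0.35 (SE 0.20) did not pass (adjusted p = 0.359 in edgeR) and was 0.19 without P0 replicate 3. The distal region from 12914997 to 12917982, between genes and 25.3 kb downstream of the start, had 13.4, 16.6 and 13.1 CPM at E14.5 and 24.7, 27.1 and 22.5 CPM at P0. It rose 1.72-fold (log2 fold change 0.78, SE 0.20, adjusted p = 0.0354 in edgeR), and no library of either stage overlapped the other. Its listed motifs were all of the forkhead family (Foxa1, Foxf1, Foxf2, Foxj2, Foxj3 and Foxm1), which 23.7% of the regions outside listed promoters also have in 1 form or another.

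Further out, at 37.3 kb downstream (12903461 to 12905608), a region within a noncoding gene had 20.3, 19.1 and 14.7 CPM at E14.5 and 30.6, 24.7 and 33.7 CPM at P0. Its groups did not overlap either, but the log2 fold change of 0.72 (SE 0.20) missed the threshold in edgeR (adjusted p = 0.0585). It passed with DESeq2 (adjusted p = 0.0377), with total-count scaling (0.0496) and without P0 replicate 2 (0.0384). The region 31.3 kb upstream (12972026 to 12974301) held 18.0 ± 1.37 CPM at E14.5 and 22.9 ± 2.03 CPM in the P0 group (SD, n = 3 each), without overlap (log2 fold change 0.34, adjusted p = 0.357 in edgeR). Only the region 9.11 kb downstream had overlapping groups, with 12.5 ± 2.38 and 12.9 ± 1.71 CPM. For the regions 25.3 kb and 37.3 kb downstream, the RefSeq start nearest to the midpoint was that of the uncharacterised gene Gm40271 rather than Mycn.

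**Figure D3:**
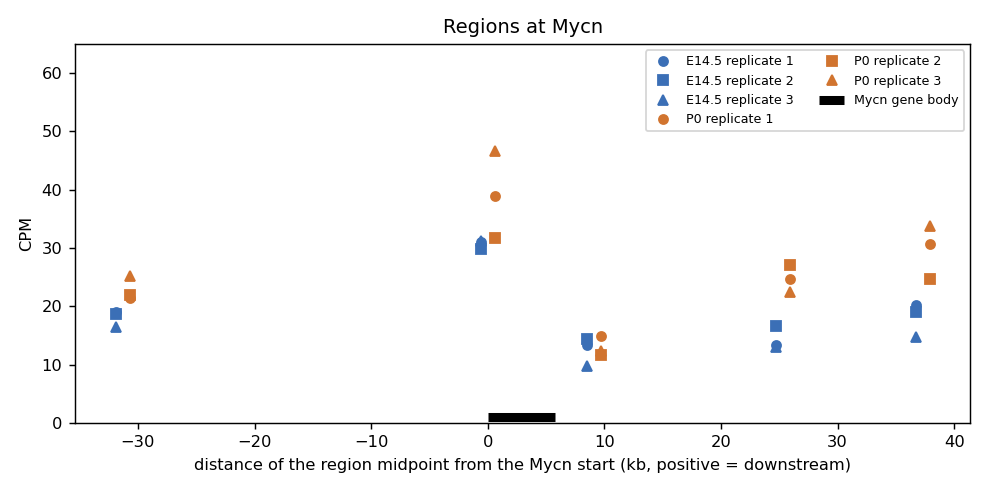
CPM (y axis) of the 5 regions at Mycn by the distance of their midpoint from the Mycn start in kb (x axis, positive downstream), with a point for each library, shifted sideways by stage so that they can be told apart, and a bar for the gene body. At 25.3 kb and 37.3 kb downstream the P0 points all lie above the E14.5 points, and at 9.11 kb they mix.

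Mycl, the third member of the Myc family, showed no call at any of its 5 regions. Its promoter (chromosome 4, 122995346 to 122997546) had 35.0, 30.3 and 41.9 CPM at E14.5 and 28.2, 25.1 and 32.0 CPM at P0, with overlapping groups (log2 fold change -0.32, SE 0.20, adjusted p = 0.414 in edgeR, and -0.19 without E14.5 replicate 3). The smallest p at this locus belonged to a region 34.4 kb upstream, by the start of the lipid transporter gene Mfsd2a and listed as the promoter of 4933421A08Rik. It held 29.9 ± 3.03 CPM at E14.5 and 21.9 ± 4.90 CPM in P0 libraries (SD, n = 3 each), with every P0 library below every E14.5 library (log2 fold change -0.45, adjusted p = 0.254 in edgeR).

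Max, the common partner, had the highest fold change of the network at a distal region and no call at its promoter. The promoter (chromosome 12, 76961535 to 76962947) had 72.6, 76.6 and 70.0 CPM at E14.5 and 66.3, 52.2 and 88.3 CPM at P0, and its log2 fold change was -0.08 (SE 0.22, adjusted p = 0.892 in edgeR), from -0.31 without P0 replicate 3 to 0.08 without P0 replicate 2. The other region, from 76890364 to 76892244, lay 70.9 kb downstream of the start and 46.0 kb beyond the end of Max, within Fntb, which encodes the beta subunit of protein farnesyltransferase, and outside its exons. It had 7.83, 12.7 and 7.82 CPM at E14.5 and 17.1, 19.7 and 16.7 CPM at P0. The stages did not overlap, and the region rose 1.87-fold (log2 fold change 0.90, SE 0.24, adjusted p = 0.0464 in edgeR). Motifs listed there were Foxj3, Meis1, Sox4, Sox9 and Sox18. At this distance the region is in the set by the 50 kb rule alone, and nothing in the table ties it to Max.

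Both calls were lost when any of several libraries was left out. Over the whole table, calls then ran from 339 to 2987, against 2059 with all 6 libraries. The Mycn region did not pass without E14.5 replicate 1 (adjusted p = 0.127 in edgeR), E14.5 replicate 3 (0.188), P0 replicate 1 (0.165) or P0 replicate 2 (0.0892). The region near Max did not pass without these libraries (0.172, 0.234, 0.162 and 0.113 in the same order) nor without P0 replicate 3 (0.0543). Their log2 fold changes stayed positive throughout, from 0.71 to 0.89 at Mycn and from 0.78 to 1.17 near Max. With all 6 libraries both passed under each of 9 other settings, at adjusted p-values from 0.0181 to 0.0425 and from 0.0238 to 0.0489. Of these settings, the fit without a filter repeats the reported one, because the filter removed 0 regions. Several others change few of the regions or rows fitted.

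**Figure D4:**
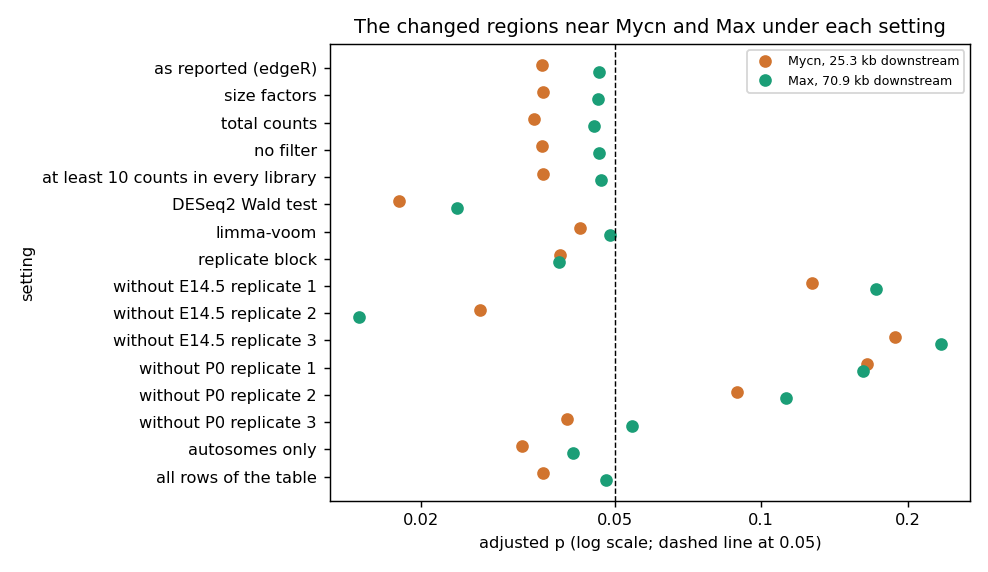
Adjusted p (x axis, log scale) of the distal regions at Mycn and near Max under each setting (y axis), with a dashed line at the threshold of 0.05. With all libraries both points lie left of the line, and most settings that leave out a library move them to its right.

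No promoter of the repressive arm passed the test. At Mxd1, Mxd3, Mxd4, Mnt and Mga, 6 regions of which those of Mnt overlap, all log2 fold changes were below 0, with a median of -0.35, while both Mxi1 promoters, described below, were above 0. Of all regions within 1 kb of a RefSeq start 31.0% were above 0, with a median of -0.12. The Mga value turned positive under total-count scaling and without P0 replicate 3. Mxd1, which is induced in differentiating cells, had 102.1, 57.0 and 62.5 CPM at E14.5 and 53.5, 42.2 and 62.0 CPM at P0 (chromosome 6, 86668597 to 86669932). E14.5 replicate 1 stood above the other libraries there, and the log2 fold change of -0.49 (SE 0.25, adjusted p = 0.309 in edgeR) became -0.18 without it. Mxd3, known for its expression in cycling cells, had 23.4, 17.6 and 25.9 CPM at E14.5 and 10.4, 16.9 and 20.8 CPM at P0, with overlapping groups (chromosome 13, 55329245 to 55331240, log2 fold change -0.47, SE 0.25, adjusted p = 0.344 in edgeR). The Mxd3 value was -0.25 without P0 replicate 1 and -0.73 without P0 replicate 3.

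Mxd4 showed 85.4, 64.9 and 60.5 CPM at E14.5 and 59.8, 43.6 and 73.6 CPM at P0 (chromosome 5, 34186695 to 34188407), a log2 fold change of -0.25 (SE 0.23) that came to -0.085 without E14.5 replicate 1, to -0.07 when P0 replicate 2 was left out and to -0.45 without P0 replicate 3. The Mnt promoter region with the most counts, from 74829888 to 74833026 on chromosome 11, had 101.9, 75.6 and 85.4 CPM at E14.5 and 70.6, 48.6 and 87.8 CPM at P0 (log2 fold change -0.34, SE 0.23). It was -0.22 without E14.5 replicate 1, -0.14 without P0 replicate 2 and -0.57 without P0 replicate 3. Mnt is the broadly expressed repressor of the network, and a region listed as its promoter 7.64 kb into the gene had a log2 fold change of -0.34 as well (-0.54 without E14.5 replicate 2), with overlapping stages. Mga, a large scaffold with a T-box domain besides the helix-loop-helix, differed least among the repressor promoters: its promoter on chromosome 2 (119896557 to 119898817) held 26.1 ± 1.82 CPM at E14.5 and 25.04 ± 3.71 CPM in P0 libraries (SD, n = 3 each, log2 fold change -0.06, SE 0.19). The adjusted p-values of these promoters in edgeR were 0.620, 0.481 and 0.914 for Mxd4, Mnt and Mga, and the stages overlapped at each. The smallest p at Mxd4 and at Mga belonged to a promoter of another gene, Haus3 (log2 fold change -0.43, adjusted p = 0.341 in edgeR) and Mapkbp1 (-0.16, adjusted p = 0.737). Without P0 replicate 2 they came to -0.22 and -0.02, and the Mapkbp1 value to -0.31 without P0 replicate 3.

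Mxi1, a repressor of the same family, stood apart from the other repressors in the sign of its promoter values, a contrast that was not tested. The region at its earlier start (chromosome 19, 53310305 to 53311911) had 14.47, 17.9 and 22.0 CPM at E14.5 and 22.5, 21.2 and 25.1 CPM at P0. The groups overlapped by 1 library of each stage, and the log2 fold change was 0.34 (SE 0.21, adjusted p = 0.404 in edgeR). At the later start (53329112 to 53330763) it was 0.20 (SE 0.22, adjusted p = 0.700 in edgeR), and ran from -0.02 without P0 replicate 3 to 0.41 without P0 replicate 2. Between both, 3.08 kb inside the gene, lay the distal region with the most counts in the network, from 53312483 to 53314681, at 40.9 ± 1.31 CPM at E14.5 and 40.2 ± 11.4 CPM in P0 libraries (SD, n = 3 each).

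A region 38.7 kb beyond the end of Mxi1, from 53411383 to 53412633, overlapped an element of the VISTA collection of tested enhancers, by a column of the table whose build was not given. It had 6.41, 9.81 and 8.64 CPM at E14.5 and 15.2, 12.9 and 12.6 CPM at P0. All P0 libraries were above all E14.5 libraries, yet the log2 fold change of 0.70 (SE 0.24) did not pass (adjusted p = 0.120 in edgeR). The RefSeq start nearest to it was that of Smndc1, a splicing factor gene. The listed motifs were Jund, Sox3, Sox4, Sox9 and Sox10.

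**Figure D5:**
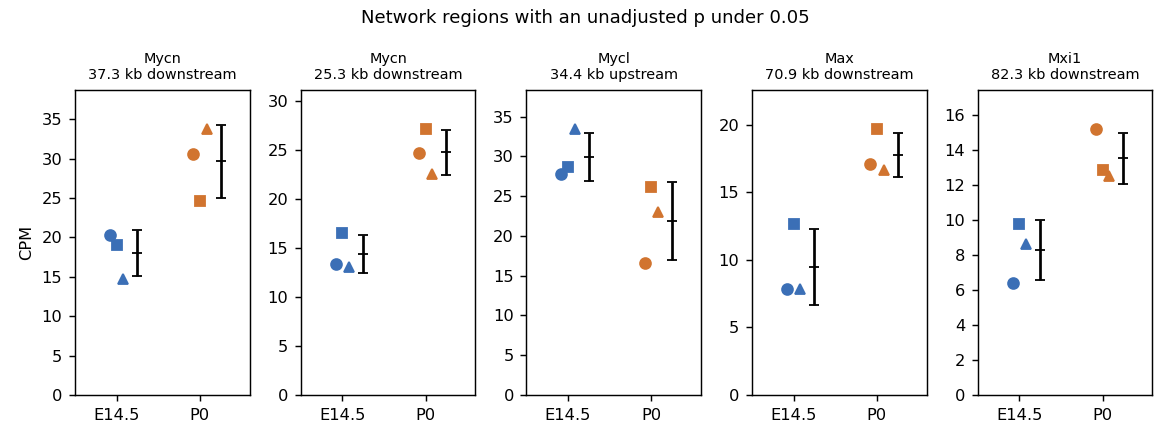
CPM (y axes, each from 0) by stage in the 5 network regions with an unadjusted p under 0.05, titled by gene and distance from its start, with a point for each library (marker shape for the replicate number) and the mean ± SD beside it. In each panel the stages do not overlap, with P0 higher at Mycn, Max and Mxi1 and lower at Mycl.

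Promoter values moved with the libraries as a whole. P0 replicate 2 was the lowest of the 6 libraries at 8 of the 12 own promoters and at 52.7% of all regions within 1 kb of a RefSeq start, and these regions took 30.2% of its counts, against 35.3% to 40.04% in the other libraries. P0 replicate 3, with the highest share (40.04%), was the highest P0 library at 11 of the 12. Without P0 replicate 2 the median log2 fold change of the own promoters was -0.05, and without P0 replicate 3 it was -0.39, against -0.16 with all libraries. All 10737 regions within 1 kb of a RefSeq start had a median of -0.12, and 31.0% of them were above 0, against 3 of the 12 own promoters. The part of this difference between libraries in the promoter values of the network was not tested. The 11 distal regions, all outside listed promoters, had a median of 0.14, with 8 above 0, beside a median of 0.08 and 57.7% above 0 for all regions farther than 1 kb from a RefSeq start. The latter set is defined differently, as it also holds listed promoters farther than 1 kb from a RefSeq start.

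The authors' deposited table, with results of a model not given in the sources used here, classed 3 of the 34 regions as opening and none as closing. Of all regions 2.86% were classed as opening, and the share classed as closing was not counted here. They were the Mycn regions 25.3 kb and 37.3 kb downstream and the region near Max. In the authors' deposited table their log2 fold changes were 0.73, 0.74 and 0.82, with adjusted p-values of 0.0743, 0.0768 and 0.0900.

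Related genes were taken by the same distance rule. Among 8 further factors of the E-box binding class (Mlx, Mlxip, Mlxipl, Usf1, Usf2, Tfe3, Tfeb and Mitf), 33 regions held 1 call (3.03%, near the 4.73% of all regions), and their median log2 fold change was -0.11. The call was a region within Mitf, the regulator of pigment cells and lysosomal genes, outside its exons (chromosome 6, 97819695 to 97821021). It had 6.999, 6.39 and 6.89 CPM at E14.5 and 11.9, 15.0 and 11.4 CPM at P0 (log2 fold change 0.91, SE 0.24, adjusted p = 0.0441 in edgeR). The stages did not overlap, but limma-voom gave an adjusted p of 0.0539. It also missed the threshold without any single library other than P0 replicate 3, at adjusted p-values from 0.0716 to 0.163. The log2 fold changes in those fits ran from 0.79 to 0.94.

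For 21 cofactors and regulators of Myc protein stability, such as Trrap, Wdr5, Sin3a, Fbxw7, Huwe1 and Aurka, 0 of 61 regions passed in edgeR, against 4.73% of all regions. An unadjusted p under 0.05 was found for 6 of the 61, 2 higher and 4 lower at P0, against 18.7% of all regions. Of 24 textbook targets of Myc, among them Ncl, Npm1, Odc1, Cad, Cdk4 and Ccnd2, 20 had a region at their own promoter, and none of these passed in edgeR or had an unadjusted p under 0.05, as 0.708% and 888 of the 10737 regions near starts did. Their median was -0.16, beside -0.12 for all regions near starts, and 1 of the 20 was above 0, beside 31.0%. Over the 81 regions within 50 kb of the targets, 5 had an unadjusted p under 0.05, all higher at P0, against 18.7% of all regions. There was 1 call among the 81 (1.23%, against 4.73% of all regions), 813 bases from the cap-binding factor gene Eif4e and between genes (chromosome 3, 138559816 to 138561202). It had 7.71, 8.76 and 5.96 CPM at E14.5 and 13.4, 13.6 and 15.2 CPM at P0 (log2 fold change 0.91, SE 0.24, adjusted p = 0.0419 in edgeR). Without any single library other than E14.5 replicate 2 it missed the threshold, at adjusted p-values from 0.0688 to 0.213 and log2 fold changes from 0.77 to 0.93. These 3 lists shared no region with the network.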

How the data were processed

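ATAC-seq counts of 6 libraries (E14.5 and P0, 3 each) came from 1 table deposited by the authors. Its whole-number counts per region are not normalized, and the build is mm10 per the submitters' processing notes. The aligner, peak caller, counting rule, duplicate removal and Tn5 shift are not given in the sources used here, and their effect on the counts was not assessed. Per the file headers it also holds the authors' own log2 fold change and adjusted p-value, made with a model not given in the sources used here.

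Of 45489 rows, 1966 repeated a region with identical counts and were dropped. All 6 columns of counts matched a library title. Gene spans and starts were those of RefSeq GRCm38.p6. Myc has no entry among the promoter windows, so its start was taken as an end of its RefSeq span inside a region that the table lists as its promoter. The table's identifiers were named through its own identifier and name pairs.

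All regions were fitted with edgeR 4.0.16 in R 4.3.3 (TMM scaling, filterByExpr, which removed 0 regions, quasi-likelihood F test, stage as the only term, Benjamini-Hochberg over all regions, threshold 0.05), and the standard error is the log2 fold change divided by the root of F. The fit was tested on simulated data, where most planted 2-fold changes were missed. A region that did not pass may therefore still differ between the stages. Depth ran from 6492996 to 12292629 counts per library, and 3 libraries a stage limit the precision. Named were, for each gene, the promoter region with the most counts and the region with the smallest p, all calls, and the distal region with the most counts. Other distal regions of Mycn, the Pvt1 region of Myc and the earlier start of Mxi1 were named after their values were seen. Members and lists were chosen with earlier results of these data known. Alternatives were other scalings, filters, tests (DESeq2 1.42.0, limma 3.58.1), gene windows, a replicate block and leaving out each library.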

Additional observations from a re-analysis of the deposited data

How the results depend on the processing

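The count of 2 network regions past the threshold, both higher and 0 lower at P0, was 2 or 3 under each other scaling, filter and test, and 3 with a threshold of 0.1, where all regions gave 3490 calls against 2059. It was 3 with total-count scaling and with DESeq2, through the Mycn region 37.3 kb downstream (adjusted p = 0.0496 and 0.0377). A window of 10 kb left 19 regions, the gene body alone 11 and the nearest RefSeq start 18, each with 0 calls, higher or lower, because both called regions lie outside these sets. Leaving out 1 library gave 0 to 2 calls, all higher, with 0 without E14.5 replicate 1, E14.5 replicate 3 or P0 replicate 1, and the 1 call without P0 replicate 2 was that same Mycn region (adjusted p = 0.0384). The whole table then gave from 339 to 2987 calls. The network's median log2 fold change ran from -0.30 (without P0 replicate 3) to 0.041 (without P0 replicate 2), and that of its promoters from -0.39 to -0.05. The cause of these shifts was not tested.

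Signs turned under some setting at 11 of the 34 regions, none of which passed the test, among them the Pvt1 region, the Mycn region 9.11 kb downstream and 6 of the 19 network regions that the naming rule picked. Under total-count scaling the promoters of Myc and Mga and the region inside Mxi1 became positive (adjusted p = 0.967, 0.9995 and 0.951). When 1 library was left out, signs turned at the Myc promoter (adjusted p from 0.358 to 0.999), the region inside Myc (0.332 to 0.980), the Max promoter (0.394 to 0.956), the later Mxi1 promoter (0.304 to 0.965), the region inside Mxi1 (0.478 to 0.998) and the Mga promoter (0.785 to 0.984).

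Replicate numbers did not pair the libraries: deviations of same-numbered libraries from their stage means correlated at 0.0666, -0.140 and 0.0767 across regions, and E14.5 replicates 1 and 2 correlated best with P0 replicates 2 and 3. With the replicate number as a block 2 network regions passed, of 1834 in all, and the Mitf and Eif4e regions did not (adjusted p = 0.0682 and 0.0622).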

Other observations

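The E-box that Myc and Max bind was also followed over all promoters. Of the regions that hold a whole RefSeq promoter window, 1138 had the letters CACGTG in it and 8806 did not. Regions with an E-box had a median log2 fold change of -0.15 and those without one of -0.12, and their interquartile ranges overlapped (-0.31 to -0.01 and -0.27 to 0.04). Calls were few in both, 1 higher and 7 lower at P0 with an E-box (0.703%) and 14 higher and 26 lower without (0.454%). Their median levels were 14.47 and 14.43 CPM per kb at E14.5 and 13.0 and 13.3 at P0. Promoters with E2F letters, as at Mycn, had a median of -0.16 over 474 regions, beside -0.12 over the 9470 without them, with overlapping interquartile ranges (-0.28 to -0.01 and -0.28 to 0.03).

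The table lists target genes for many regions from an enhancer annotation. For the network genes, 119 links were listed, from 4 for Max to 27 for Mycn, and 0 of them joined a region to a gene on the same chromosome. Over all regions with a linked gene found in RefSeq, 998 of 183214 links (0.545%) were on the chromosome of the gene, in 134 of 18697 regions. These links were therefore not used to assign regions to genes.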
